A study of Rattus norvegicus with 15 samples.

Results

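Tfrc (ENSRNOG00000001766) and Fth1 (ENSRNOG00000022619), which encode the cell's receptor for iron-loaded transferrin and the heavy chain of the iron store ferritin, were followed through 15 libraries of rat whole blood. They are 2 of the 4 genes on a list of reticulocyte iron and heme synthesis genes, out of 17599 features in the table. Members were taken by identifier, from a list chosen with earlier results of these data known. The list pairs each identifier with its symbol, which the deposited table does not. The other two on the list, Alas2 (ENSRNOG00000000167), the erythroid enzyme that starts heme synthesis, and Ftl1 (ENSRNOG00000020843), the ferritin light chain, were not analysed here.

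Blood was drawn into PAXgene tubes, which preserve RNA, from male Sprague-Dawley rats aged 6 to 8 weeks and weighing 250 to 300 g, in a study that modelled deep venous thrombosis, the clotting of blood inside a deep vein. There were 5 groups of 3 libraries: sham, placed by the labels at 0 h, and modelled rats at 1 h, 6 h, 12 h and 72 h. How the clot was induced, and what the sham rats underwent, is stated neither by the labels nor by the table. The titles mark the 9 libraries of sham, 1 h and 72 h with A&B. They mark the 6 of 6 h and 12 h with C. These marks are called run labels here, though the titles do not say what they stand for. Whether A&B is a single batch is not stated either. Time and run label cannot be told apart where 6 h or 12 h is set against sham. Nothing in the labels ties a library to an animal. The p-values measure the spread between these libraries, which may be technical.

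Reticulocytes, the youngest red cells in the circulation, still make hemoglobin and take up iron through transferrin receptor 1, the product of Tfrc, which is lost from the surface as they mature. Other dividing or activated cells, among them activated lymphocytes, also carry it. Ferritin holds iron that is not in use, and its heavy chain oxidises ferrous iron so that it can be stored; monocytes and macrophages make much of it. When iron is scarce, iron regulatory proteins bind hairpins in both messages, protecting that of Tfrc from decay and blocking translation of that of Fth1, so that for Fth1 this control acts on protein more than on RNA. In whole blood, a change in the number of cells of a type and a change in RNA per cell cannot be told apart.

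The stretch before the start of Tfrc, the member whose RNA varied most, is shown for reference; 1 of the 2 members, Tfrc, matched the table of upstream sequences. Sequence and position are RefSeq's, on build GRCr8, minus strand, chr11:81690319-81690568, the 250 bases upstream of the annotated start and written 5′ to 3′ along the gene. Capitals mark ACGTG, the core of the hypoxia response element, and expression data alone do not show whether anything binds there.

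Tfrc upstream: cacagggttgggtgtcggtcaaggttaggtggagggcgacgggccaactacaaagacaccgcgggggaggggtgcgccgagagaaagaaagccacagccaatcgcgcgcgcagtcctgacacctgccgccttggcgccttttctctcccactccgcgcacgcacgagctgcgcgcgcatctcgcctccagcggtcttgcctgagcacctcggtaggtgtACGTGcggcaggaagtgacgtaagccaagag

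The search covered both strands. ACGTG matched once, 31 to 27 bases before the start, and 16.6% of the 33469 upstream stretches of this length in the RefSeq table hold it. CANNTG, the E-box, matched once, 131 to 126 bases before the start, and 65.5% of stretches hold it. The GATA site, searched as AGATA or TGATA followed by A or G (27.0% of stretches), and the antioxidant response core TGACNNNGC (10.1%) had no match in this window. ACGTG and CANNTG matches did not overlap each other.

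Tfrc was low at 1 h and, in all but 1 library, high at the later times. Its normalised read count, the authors' reads divided by 1 factor per library, was 316, 138 and 215 in the sham libraries. It was 117, 80.5 and 95.8 at 1 h. At 6 h it was 411, 1659 and 622. At 12 h it was 2156, 2840.5 and 205, and at 72 h it was 579, 569.9 and 1217. Every library of 1 h was lower than every sham library, and all 6 h and all 72 h libraries lay above them, while 12 h replicate 3 fell inside the sham range. Such separation from sham held for 11.3% (1 h, below), 13.7% (6 h, above) and 7.78% (72 h, above) of tested features. Group means were 223 ± 89.1 (sham), 97.6 ± 18.1 (1 h), 898 ± 668 (6 h), 1734 ± 1367 (12 h) and 789 ± 371 (72 h), each ± SD with n = 3. In order of mean level the groups ran 1 h, sham, 72 h, 6 h and 12 h. The last 3 overlapped in their libraries and are not separated by these data.

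**Figure D1:**
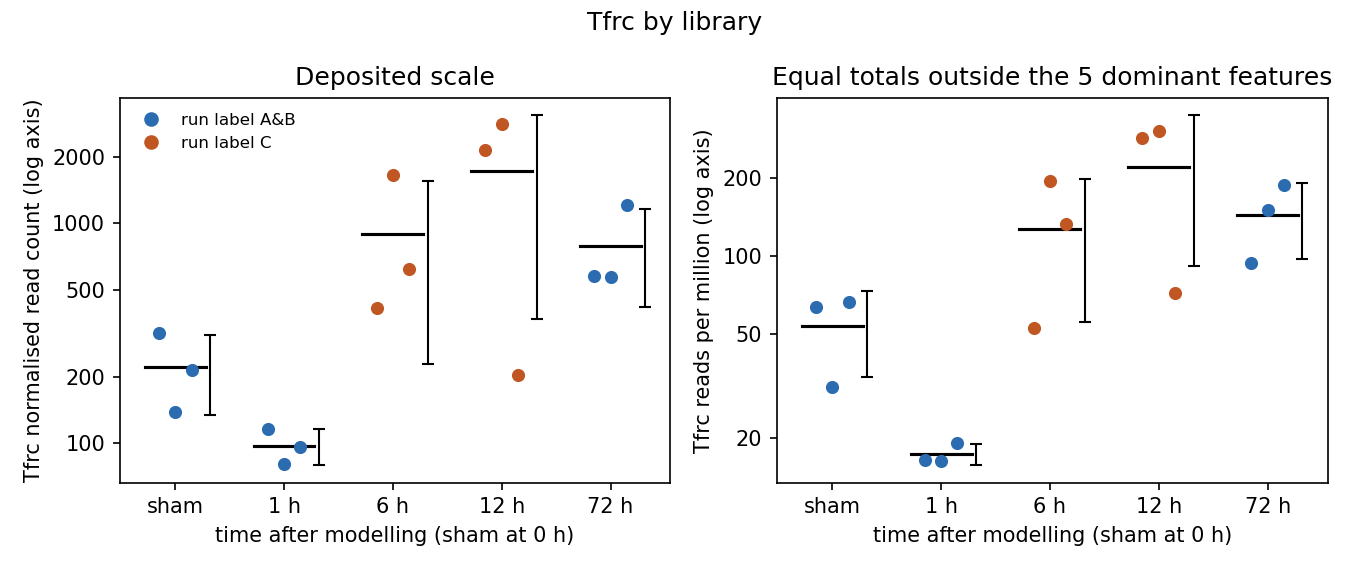
Tfrc in each library against time after modelling, as normalised read count on the deposited scale (left) and as RPM counted outside the 5 dominant features (right), both on log axes. Points are libraries coloured by run label, short lines are group means and bars are 1 SD (n = 3). On both scales the 1 h libraries lie below all others, and the 12 h group holds the highest values and 1 library near the sham range.

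The depth behind Tfrc was modest. It had between 83 reads (1 h replicate 2) and 1686 reads (12 h replicate 1) in a library. The exact Poisson 95% interval for the 83 reads runs from 66.1 to 102.9, and over all libraries the half-width was at most 22.2% of the count. These intervals cover counting error only, and the span of 35.3-fold between the highest and lowest normalised read count is far wider. Ranked among the 15043 annotated features of each library by normalised read count, which is not per length, Tfrc took places 796 to 1681 in the sham libraries, 1871 to 2723.5 in those of 1 h, 247 to 727 in those of 6 h, 186 to 1174 in those of 12 h and 273 to 503.5 in those of 72 h. A rank within a library does not depend on how the library was scaled. By rank, too, every 1 h library was lower than every sham library and every 72 h library was higher. The share of all features separated in this way by rank was not computed.

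Fth1 was abundant and showed no comparable course. Its normalised read count was 23215, 27958 and 12401 in sham. It was 43289, 26516 and 46748 at 1 h. At 6 h it was 39549, 28673 and 14930.2. At 12 h it was 40074, 38117 and 11839, and at 72 h it was 33344, 13184 and 30091. The groups overlapped in all 6 comparisons, with the highest values at 1 h and 1 library of each other group between 11839 and 14930.2. Those low libraries are the 4 with the largest factors, 1.40 to 2.67. Means were 21191 ± 7974 (sham), 38851 ± 10822 (1 h), 27717 ± 12337 (6 h), 30010.0 ± 15767 (12 h) and 25540 ± 10823 (72 h), each ± SD with n = 3. In order of mean level the groups ran sham, 72 h, 6 h, 12 h and 1 h, and no neighbours in that order differed by more than their SD. Fth1 had 19181 to 49766 reads in a library, with a Poisson half-width of at most 1.42%. Rodent genomes carry near-identical processed copies of the ferritin heavy chain gene, and how reads with several matches were counted is not given, so the level of Fth1 itself is uncertain.

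**Figure D2:**
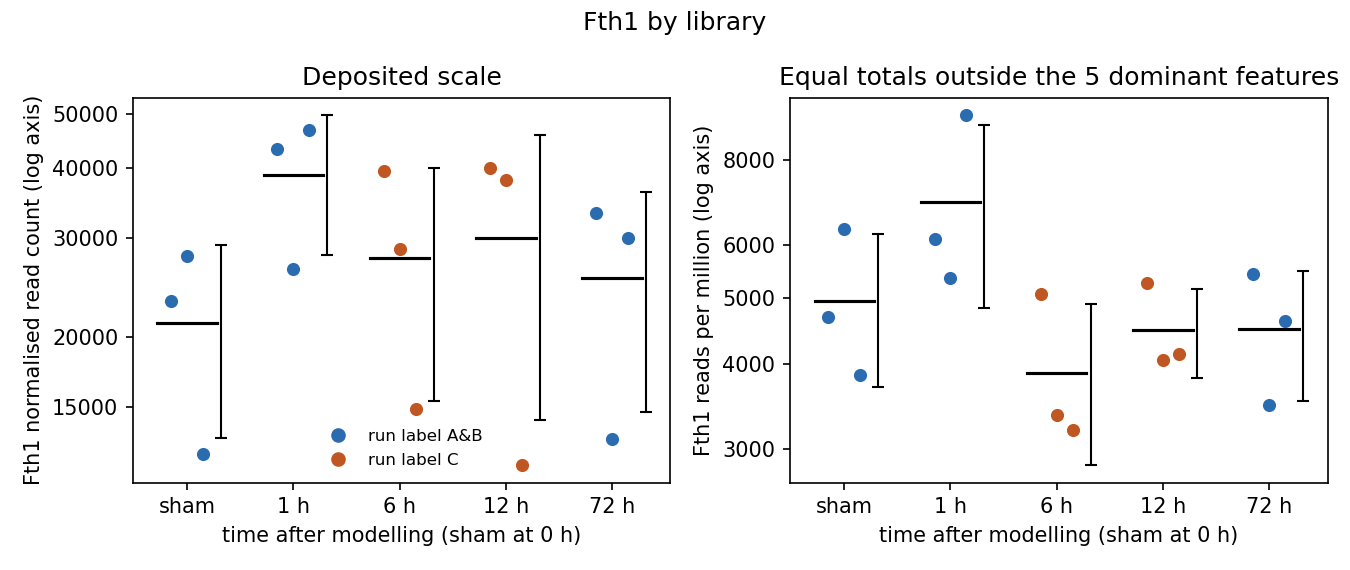
Fth1 in each library against time after modelling, as normalised read count (left) and as RPM counted outside the 5 dominant features (right), both on log axes. Points are libraries coloured by run label, short lines are group means and bars are 1 SD (n = 3). The groups overlap on the left, where 1 library in each of sham, 6 h, 12 h and 72 h stands low, and those gaps narrow on the right.

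The first comparisons ask how blood RNA stands at each time against sham. Differences were tested with limma on log2(normalised read count + 1), with Benjamini-Hochberg adjustment over the 11117 features tested. Both members passed the filter on low values, with every library above its minimum, and 0 of 2 passed adjusted p 0.05 in any of the 6 comparisons. Unadjusted p was under 0.05 in 4 of 6 comparisons for Tfrc and in 0 of 6 for Fth1, and edgeR's quasi-likelihood test on recovered reads gave the same numbers, with none past the adjusted threshold. Against sham, limma's unadjusted p was under 0.05 for 1898 (6 h), 1455 (12 h) and 806 (72 h) of 11117 features. At 72 h against 1 h it was under 0.05 for 1002 features.

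At 1 h against sham, the log2 difference of Tfrc was -1.12 (limma SE 0.75, adjusted p = 0.807), and the share of all tested features called was 0.135%. The 1 h values of Tfrc were all under its sham values, which held for 11.3% of features. The log2 difference of Fth1 was 0.91 (limma SE 0.61, adjusted p = 0.808), opposite in sign to Tfrc. The limma 95% intervals, -2.70 to 0.46 for Tfrc and -0.38 to 2.21 for Fth1, include 0.

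At 6 h against sham, the log2 difference of Tfrc was 1.83 (limma SE 0.75, adjusted p = 0.223), and 0.486% of features were called. Its 6 h libraries lay above all sham libraries, as did those of 13.7% of features. The interval for Tfrc was 0.24 to 3.41. Fth1 had 0.36 (SE 0.61, limma adjusted p = 0.812).

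At 12 h against sham, Tfrc had its widest distance from sham at any time, 2.35 on the log2 scale (limma SE 0.75, adjusted p = 0.223, interval 0.77 to 3.94), and 0.072% of features were called. In unadjusted p it ranked 308 of 11117. Without 12 h replicate 3 the difference was 3.55 (limma adjusted p = 0.00135), in a fit that called 1546 of 11117 features, or 13.9%, so that Tfrc was one of many features whose call changed with that library. In the other 12 alternatives the adjusted p for Tfrc was 0.0812 to 0.728. Replicate 3 had the largest factor of all, 2.67, against 0.782 and 0.584 in replicates 1 and 2, and the most features with reads, 14524. The part of the factor in its low value was not tested. In RPM counted outside the dominant features, replicate 3 stood lowest of the 3, with 71.8 beside 283 and 302. Fth1 had 0.39 at 12 h (SE 0.61, limma adjusted p = 0.815).

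At 72 h against sham, within run label A&B, the log2 difference of Tfrc was 1.80 (limma SE 0.75, adjusted p = 0.652, interval 0.22 to 3.39). Of all features 0% were called by limma (0 of 11117, with 806 at unadjusted p under 0.05), and edgeR also called 0, with 738. All 72 h libraries stood above all sham libraries for Tfrc, as for 7.78% of features. Fth1 had 0.24 (SE 0.61, limma adjusted p = 0.954). The 4 comparisons with sham share its 3 libraries, so the differences above are not independent of each other.

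The remaining 2 comparisons set one time against another within a run label. At 72 h against 1 h, Tfrc had the largest difference found for either gene, 2.92 on the log2 scale (SE 0.75, limma adjusted p = 0.229, interval 1.34 to 4.51). By unadjusted p (0.00121) it ranked 55 of 11117, where 0.018% of features were called. All 3 libraries at 72 h were above all 3 at 1 h, as for 7.95% of features. With the log2 factor of each library as covariate the difference was 2.95 (limma adjusted p = 0.0314), and with the 72 h and 1 h libraries fitted alone it was 2.92 (limma adjusted p = 0.0123). These fits called 1.79% of features with the covariate and 0.126% with the groups alone. In the other 11 of 13 alternatives Tfrc did not pass, with an adjusted p of 0.209 to 0.614. Fth1 had -0.67 (SE 0.61, limma adjusted p = 0.811), again opposite in sign to Tfrc. At 12 h against 6 h, Tfrc had 0.52 (SE 0.75, limma adjusted p = 0.990, interval -1.06 to 2.11) and Fth1 0.03 (SE 0.61, limma adjusted p = 0.998, interval -1.27 to 1.33). Here 0% of features were called (423 at unadjusted p under 0.05; edgeR called 0, with 368). The intervals are wide enough to hold a change of 2 units of log2 in Tfrc.

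**Figure D3:**
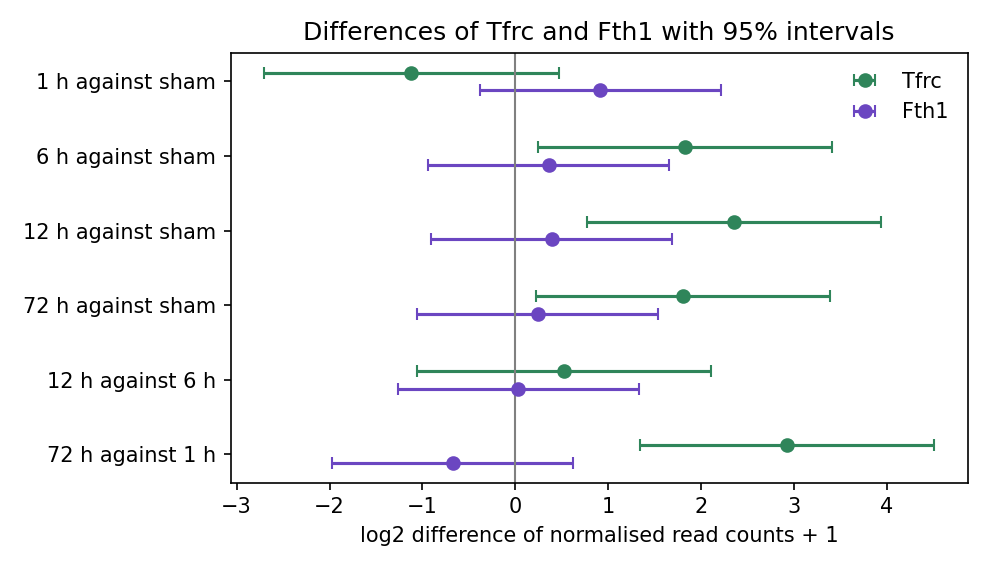
Log2 differences of normalised read counts + 1 for Tfrc and Fth1 in the 6 comparisons, from limma with all 15 libraries. Points are estimates, bars are 95% intervals and the vertical line marks 0; the interval of Tfrc lies above 0 in 4 comparisons and that of Fth1 includes 0 in all 6, none being past the adjusted threshold.

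As a test of Tfrc alone within a run label, an exact permutation test of the F statistic over sham, 1 h and 72 h gave p = 0.00357, the smallest that its 1680 arrangements allow, and 0.0143 after adjustment over 4 tests. The order was complete: every 1 h library was below every sham library and every sham library below every 72 h library, which held for 39 of 11117 features, or 0.351%. For Fth1 the same exact test gave p = 0.246 (adjusted 0.493). Between 12 h and 6 h the exact permutation p was 0.8 for Tfrc and 0.9 for Fth1, in a design that cannot go below 0.1. These exact tests were added after the data were examined. The complete order of Tfrc by itself sets its p at the smallest value. Full separation of these groups in any other order would set the same p, while the 0.351% counts this order alone. The share of features separated in any order was not computed. The adjustment over 4 tests does not cover the choice of test.

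The scale bears differently on the 2 genes. Between 79.3 and 85.1% of reads lay on the 5 dominant features. The factor ran from 0.584 to 2.67 while depth ran only from 29.2 to 43.3 M reads. Fth1 followed the log2 factor over the 15 libraries, with Pearson's r = -0.84 (permutation p = 5e-05, or 0.00015 adjusted over the 3 relations examined) and a rank correlation, Spearman's rho, of -0.725 (permutation p = 0.00289, adjusted 0.00867). Leaving out the 2 libraries with the most extreme factors gave -0.82, and it was -0.76 within run label A&B and -0.95 within C. Since the value is reads divided by that factor, part of this relation is by construction. For Tfrc r was -0.43 (permutation p = 0.105, adjusted 0.158) and rho was -0.43 (permutation p = 0.112, adjusted 0.168), with -0.28 without the same 2 libraries and -0.20 and -0.78 within A&B and C.

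**Figure D4:**
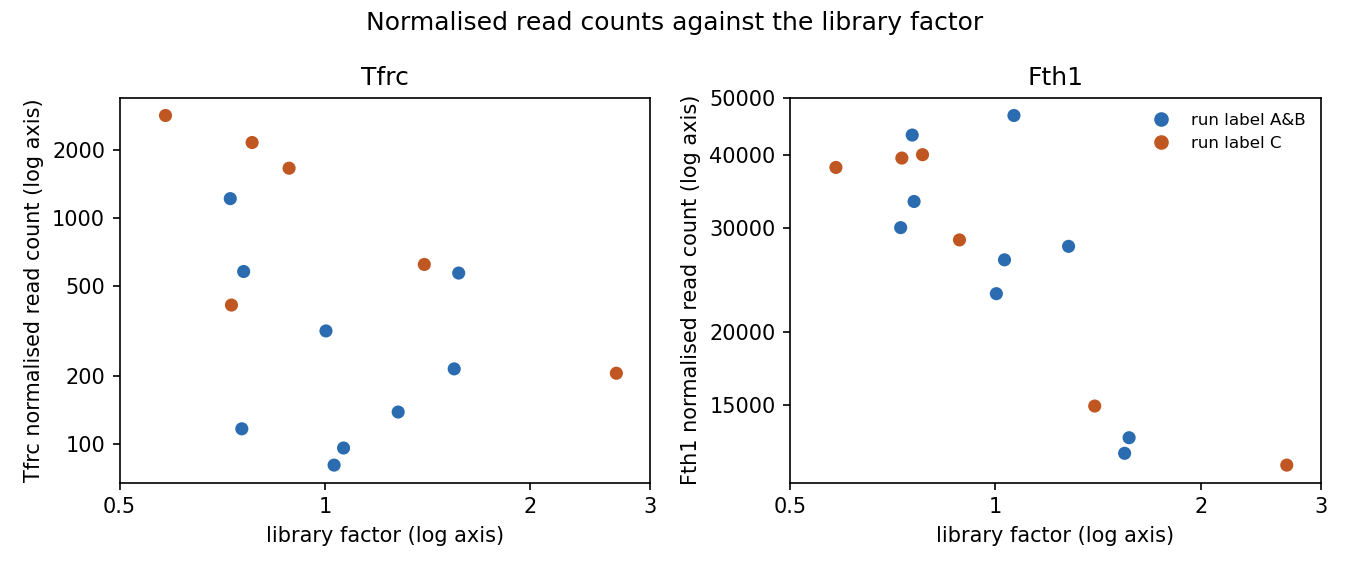
Normalised read count of Tfrc (left) and Fth1 (right) against the factor by which each library was divided, all on log axes, with 15 libraries coloured by run label. Fth1 is lowest in the 4 libraries with the largest factors, 1.40 to 2.67. The highest Tfrc values, 1217 to 2840.5, lie at factors of 0.584 to 0.886, a range that also holds a Tfrc value of 117.

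Setting the reads outside the 5 dominant features to the same total (here RPM outside them) does not use the factor. On that scale Tfrc averaged 54.0 ± 19.7 (sham), 17.3 ± 1.57 (1 h), 127 ± 71.1 (6 h), 219 ± 128 (12 h) and 144 ± 46.8 (72 h), each ± SD with n = 3. The 1 h libraries, at 16.3 to 19.1, were below all sham libraries, at 31.3 to 66.7, as for 19.6% of features on this scale. The 72 h libraries, at 94.2 to 187, were above them, as for 4.96% of features. The 12 h libraries, at 71.8 to 302, were also above them here, as for 4.07%, whereas the 6 h libraries, at 52.7 to 195, overlapped them. On this scale the median log2 difference of all features from sham was -0.40 (1 h), -0.73 (6 h), -0.54 (12 h) and -0.41 (72 h). Those of Tfrc were -1.56 (1 h), 1.12 (6 h), 1.84 (12 h) and 1.43 (72 h), none past the adjusted threshold. The exact permutation p for Tfrc over sham, 1 h and 72 h was again 0.00357, as the same complete order sets it. The share of features with these groups fully separated was not computed on this scale. Fth1 averaged 4960.2 ± 1262 (sham), 6927 ± 2096 (1 h), 3874 ± 1038 (6 h), 4486 ± 672 (12 h) and 4508 ± 978 (72 h), each ± SD with n = 3. Its log2 differences from sham on this scale were 0.47 (1 h), -0.36 (6 h), -0.12 (12 h) and -0.13 (72 h), so that the last 3 turned negative while staying above the median of all features.

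A ratio of the reads of the 2 genes within a library is free of any scaling. Sham libraries had 13.6, 4.95 and 17.3 Tfrc reads per 1000 Fth1 reads. At 1 h they had 2.69, 3.04 and 2.05. At 6 h they had 10.4, 57.9 and 41.7, at 12 h 53.8, 74.5 and 17.3, and at 72 h 17.4, 43.2 and 40.4. The ratios of the 1 h libraries lay below those of all 12 other libraries. The highest sham ratio and the lowest ratios at 12 h and 72 h were 17.3, 17.3 and 17.4, well inside one another's counting intervals. The mean log2 ratio was -6.56 ± 0.96 (sham), -8.60 ± 0.29 (1 h), -5.09 ± 1.31 (6 h), -4.60 ± 1.10 (12 h) and -5.00 ± 0.73 (72 h), each ± SD with n = 3. It was taken after adding 1 to each normalised read count, so the factor enters it slightly. These ratios are given as a description, without a test. They compare libraries and not the levels of the 2 genes, since neither is taken per length.

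**Figure D5:**
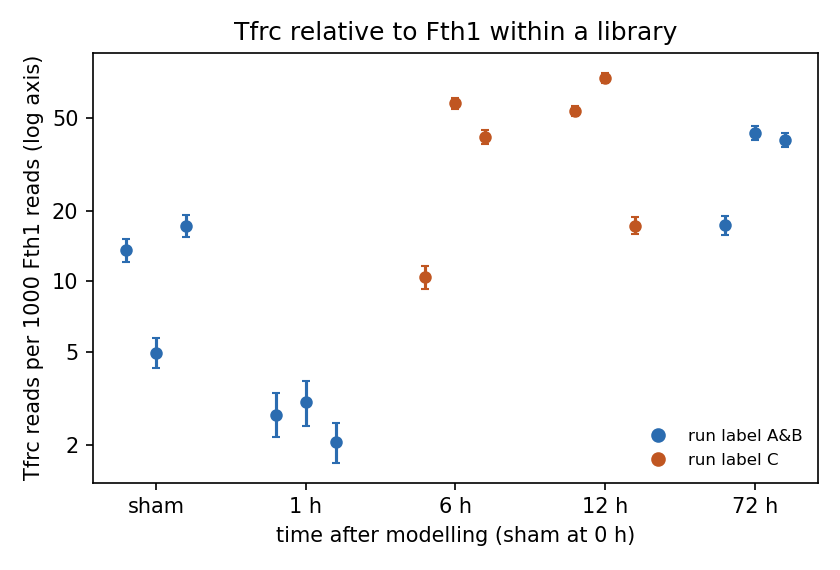
Tfrc reads per 1000 Fth1 reads in each library (log axis) against time after modelling, coloured by run label. Bars are exact binomial 95% intervals for counting error; the 3 libraries at 1 h, at 2.05 to 3.04, lie below the other 12, and the ratio varies within sham, 6 h, 12 h and 72 h by more than the bars.

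Whether the genes vary together depends on the scale. On the deposited scale Tfrc and Fth1 had Pearson's r = 0.11 over the 15 libraries (permutation p = 0.694, adjusted 0.694) and Spearman's rho = 0.09 (permutation p = 0.764, adjusted 0.764), with -0.15 without the 2 libraries farthest from the median of Tfrc and -0.30 and 0.69 within run labels A&B and C. On the scale of equal totals outside the dominant features r was -0.66 (permutation p = 0.00649, adjusted 0.0195) and rho was -0.63 (permutation p = 0.0138, adjusted 0.0413). It was -0.66 there without the 2 farthest libraries and -0.70 within A&B (permutation p = 0.031), and -0.13 within C (permutation p = 0.784). The permutations moved libraries freely between groups, so differences between groups can by themselves give a small p. The libraries with least Tfrc, those at 1 h, were also among the 5 with most Fth1 on that scale.

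Few features followed Tfrc closely. Over the 15 libraries 8 of 11116 other tested features had r of at least 0.9 with it on the deposited scale, and 1 had it with equal totals. For Fth1 these numbers were 31 and 2. In the opposite direction, 9 features had r of -0.9 or below with Tfrc on the deposited scale, and 0 with Fth1. The annotated features most like Tfrc were ENSRNOG00000009778 (r = 0.95, and 0.59 with equal totals) and ENSRNOG00000060340 (r = 0.94, and 0.93 with equal totals). The normalised read count of ENSRNOG00000009778 averaged 296 ± 24.2 (sham), 251 ± 21.7 (1 h), 454 ± 69.2 (6 h), 498 ± 168 (12 h) and 420.4 ± 83.9 (72 h), so its mean, like that of Tfrc, was lower at 1 h than in sham. That of ENSRNOG00000060340 averaged 480 ± 95.5 (sham), 538 ± 156 (1 h), 1512 ± 841 (6 h), 1822 ± 1150 (12 h) and 1189 ± 279 (72 h), each ± SD with n = 3, and its mean was not lower at 1 h than in sham. They were chosen after their values were seen. Neither identifier is paired with a gene name in the sources used here, and these likenesses are descriptions over libraries that share groups and run labels.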

How the data were processed

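Blood RNA was sequenced from 15 libraries, 3 in each of 5 groups. Per the submitters' processing notes, Bowtie 0.12.2 and build Rnor_6.0 were used, without a stated role. No source used here names the counting tool, strand setting, annotation or treatment of multiply matching reads. The authors deposited a signal per feature. Worked out from the values, it is reads divided by a factor per library: 100% of values were within 0.01 of a whole multiple of one step, though in sham replicate 1 the step is near 1, where this is less well tested. Depth was 29.2 to 43.3 M reads, 4.67 to 7.65 M outside the 5 features with more than 1% of reads on average.

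The 11117 features that reached a value of 10 in 3 or more libraries were tested with limma 3.58.1 (trend, robust; R 4.3.3) on log2(value + 1), two-sided, all libraries in one fit, adjusted over all features tested. Log2 differences on this scale understate changes of low features. Run label cannot be a term. Alternatives were a pseudocount of 5, no filter, edgeR 4.0.16 with TMM on recovered reads, equal totals outside the dominant features, the log2 factor as covariate, the replicate block, the compared groups alone, and each library left out. Permutation tests of correlations used 100000 resamples that moved libraries freely between groups (scipy 1.17.1). The fits were also run on simulated data, with the outcome not given here.

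Members, lists and tests were chosen with earlier results of these data known. The reference gene table (GRCr8) matched 0 identifiers, so the pathway and cell type lists could not be looked up, and the tissue could not be checked against markers. The rule naming the features most like Alas2 was applied to Tfrc instead, after the data were examined. At 12 h against 6 h, deviations of same-numbered libraries from their group means correlated by 0.13 to 0.45 in the 3 pairs. With the replicate block neither member passed there. Differently numbered libraries were not compared, so whether replicate numbers pair libraries was not settled.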

Additional observations from a re-analysis of the deposited data

How the results depend on the processing

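The log2 differences of Tfrc kept their sign in all 13 alternatives of each comparison, except at 12 h against 6 h, where 1 of 13 turned. Tfrc passed the adjusted threshold without 12 h replicate 3 at 12 h against sham (3.55), and at 72 h against 1 h with the factor as covariate (2.95) and with the compared groups alone (2.92). Leaving out single libraries gave Tfrc -1.42 to -0.83 at 1 h, 1.26 to 2.26 at 6 h, 1.65 to 3.55 at 12 h and 1.44 to 2.09 at 72 h against sham, -0.17 to 1.72 at 12 h against 6 h and 2.56 to 3.11 at 72 h against 1 h. Fth1 had 0.57 to 1.17, 0.01 to 0.75, 0.04 to 0.96, -0.11 to 0.66, -0.36 to 0.61 and -0.93 to -0.25 in the same order. With equal totals Fth1 turned to -0.36, -0.12 and -0.13 at 6 h, 12 h and 72 h against sham, and with the factor covariate to -0.0121 at 6 h and -0.15 at 72 h. The cause was not tested. Pearson's r of Tfrc with Fth1 turned from 0.11 to -0.66 with equal totals, -0.30 within run label A&B and -0.15 without the 2 farthest libraries, and that of Fth1 with the factor weakened to -0.25 with equal totals, which do not contain the factor. The mean log2 ratio without single libraries was -6.92 to -6.02 in sham, -8.72 to -8.44 at 1 h, -5.58 to -4.35 at 6 h, -5.03 to -3.98 at 12 h and -5.24 to -4.58 at 72 h.

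The numbers of features called moved by more than 1.5 times in many fits, read here in the order 1 h, 6 h, 12 h and 72 h against sham and 72 h against 1 h, where limma called 15, 54, 8, 0 and 2. The covariate gave 47, 777, 445, 23 and 199, and the compared groups alone 112, 494, 0, 11 and 14. Equal totals gave 0 at 1 h, 1 at 72 h and 0 at 72 h against 1 h. edgeR gave 0 at 1 h and 1 at 72 h against 1 h. A pseudocount of 5 gave 95 at 6 h and 4 at 72 h against 1 h, and no filter 33 at 6 h, 5 at 12 h and 7 at 72 h against 1 h. Single libraries left out gave 0 to 10, 0 to 170, 0 to 1546, 0 to 3 and 0 to 14, and 0 to 8 at 12 h against 6 h. The replicate block gave 123 at 6 h, 15 at 12 h and 1 at 72 h against 1 h, and it changed no call of Tfrc or Fth1. In the order above, the lowest correlations of same-numbered libraries outside 12 h against 6 h were 0.01, -0.02, 0.03, -0.09 and -0.04. The highest were 0.16, 0.20, 0.31, 0.06 and 0.14. Pairing by replicate number was not settled by this check, as differently numbered libraries were not compared.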
